A study of Homo sapiens with 9 samples.

Results

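The genes described here are 10 transcripts that are induced by ERK signalling and whose products mostly act back on the same pathway: DUSP4, DUSP5, DUSP6, SPRY1, SPRY2, SPRY4, SPRED1, SPRED2, PHLDA1 and IER3. They were chosen by name, and all 10 were found among the 22465 genes measured. The cells were MCF-10A, an established non-tumorigenic line of human breast epithelial cells, in Tet-on systems in which doxycycline induced ERK2 D319N, ERK2 Y261A or an empty vector. Each of the 3 groups had 3 replicates, harvested after 7 days of growth, and the 9 RNA samples were hybridized to 1 array each. All groups, vector included, grew in medium with serum, EGF, insulin, hydrocortisone and cholera toxin, so the cells of every group were under an ERK-activating growth factor. The labels do not say whether a line is 1 clone, nor whether the cells keep their own ERK2. No group with induced wild-type ERK2 was analysed here.

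ERK2 is the last kinase of the RAS-RAF-MEK cascade. It holds its partners at a pair of docking surfaces: the common docking site takes proteins with a D motif, and the DEF pocket takes proteins with a DEF motif. The D319N substitution lies in the common docking site, where it corresponds to the sevenmaker allele of the Drosophila ERK gene, and weakens binding of D motif partners, among them the phosphatases DUSP4 and DUSP6. Y261A lies in the DEF pocket and weakens binding of DEF motif partners. The comparison of both mutants with vector, and with each other, shows which transcripts differ between these cells. Without a group with induced wild-type ERK2, it cannot tell which transcripts depend on each site. The feedback genes are textbook targets of ERK: DUSP proteins remove phosphate from ERK, Sprouty and SPRED proteins act upstream at RAS and RAF, and their transcripts are commonly read as a measure of pathway output.

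RefSeq (GRCh38.p14) gave promoter windows for 7 of the 10 genes, 11 windows in all. Windows of DUSP4, DUSP5 and IER3 were not used here. The 250 bases before the annotated start are shown for 3 genes that moved together in D319N cells, SPRY4, PHLDA1 and DUSP6, and for SPRY1, the Sprouty gene that did not move with them. SPRY1 has 2 windows, and the one shown is that with the longer ETS site described after the sequences. SPRY4 lies at chr5:142324248-142324497 on the minus strand, PHLDA1 at chr12:76031777-76032026 on the minus strand, DUSP6 at chr12:89352502-89352751 on the minus strand and the SPRY1 window at chr4:123398136-123398385 on the plus strand. Each is written 5′ to 3′ on the gene's strand, ending at the base before the start. Capitals mark the core GGAA bound by ETS factors and the short site TGACG from the cyclic AMP response element, each on either strand.
SPRY4: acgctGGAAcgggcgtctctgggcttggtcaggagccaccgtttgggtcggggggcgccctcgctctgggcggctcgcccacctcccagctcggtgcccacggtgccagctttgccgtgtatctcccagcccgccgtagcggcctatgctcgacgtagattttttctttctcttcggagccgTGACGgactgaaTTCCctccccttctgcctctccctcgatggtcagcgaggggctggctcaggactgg
PHLDA1: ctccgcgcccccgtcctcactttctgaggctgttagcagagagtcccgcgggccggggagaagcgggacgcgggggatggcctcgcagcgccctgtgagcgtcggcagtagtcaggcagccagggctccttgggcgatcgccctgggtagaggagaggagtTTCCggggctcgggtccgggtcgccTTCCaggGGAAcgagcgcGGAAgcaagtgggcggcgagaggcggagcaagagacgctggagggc
DUSP6: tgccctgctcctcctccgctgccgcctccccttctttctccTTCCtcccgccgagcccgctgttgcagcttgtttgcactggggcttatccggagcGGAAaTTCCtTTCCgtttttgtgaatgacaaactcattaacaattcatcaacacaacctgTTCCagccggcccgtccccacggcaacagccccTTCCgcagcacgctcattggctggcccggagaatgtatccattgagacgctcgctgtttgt
SPRY1: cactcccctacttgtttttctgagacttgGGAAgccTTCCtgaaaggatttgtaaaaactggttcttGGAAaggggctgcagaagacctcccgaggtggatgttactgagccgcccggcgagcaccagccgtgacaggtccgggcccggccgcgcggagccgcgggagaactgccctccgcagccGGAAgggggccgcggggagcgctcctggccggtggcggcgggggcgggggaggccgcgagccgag
The DUSP6 window holds 6 ETS cores, of which 3 lie between positions -154 and -141 from the start. The PHLDA1 window and the SPRY1 window shown hold 4 each and the SPRY4 window 2. The other SPRY1 window holds 5 cores and not the longer site. The core is common, and stood in 92.7% of the 35116 promoter windows of this length and in 11 of 11 windows of these genes. The longer ETS site CCGGAAG, which contains the core, stood in 8.52% of all windows and in 1 of the 11, the SPRY1 window shown. The short site TGACG stood in 21.2% of all windows and in 2 of the 11, one of SPRY2 and that of SPRY4. The AP-1 site TGANTCA (6.57% of all windows), the full cyclic AMP response element TGACGTCA (1.65%) and the serum response element or CArG box (1.16%) had no match in the 11 windows. Both strands were searched. A match is a run of letters, not a shown binding site.

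In D319N cells most of the feedback genes were higher than in vector cells. Of the 10 members, 7 rose, 1 fell and 2 did not pass (adjusted p under 0.05 in limma over all genes). Over all 22465 genes, 8.9% rose and 7.64% fell, 16.5% in all. At an unadjusted p under 0.05 there were 9 members, against 28.5% of all genes. The 7 that rose, SPRY4, DUSP4, PHLDA1, IER3, SPRY2, DUSP6 and DUSP5, were 1.28-fold to 1.83-fold higher. SPRY4, DUSP4, PHLDA1 and IER3 were at least 1.5-fold higher, 4 of 10 members against 2.21% of all genes. The median difference of the 10 members was 0.47 on the log2 scale, against -0.03 for all genes. In Y261A cells none of the 10 passed in limma, 1 had an unadjusted p under 0.05, and none passed under any of the alternative settings. Over all genes 0.138% rose and 0.214% fell there, 0.352% in all, 10.3% had an unadjusted p under 0.05, and 0.0356% were called and at least 1.5-fold higher. The median difference of the members in Y261A cells was -0.07, against 0.00 for all genes. All 10 differences were negative there, from -0.18 to -0.01, where 48.8% of all genes had a positive one. Without Y261A replicate 3, those of DUSP6 (0.07) and SPRED1 (0.04) were positive. The 2 comparisons share the vector arrays. In bulk RNA, fewer cells that express a gene and less RNA per cell cannot be told apart.

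**Figure D1:**
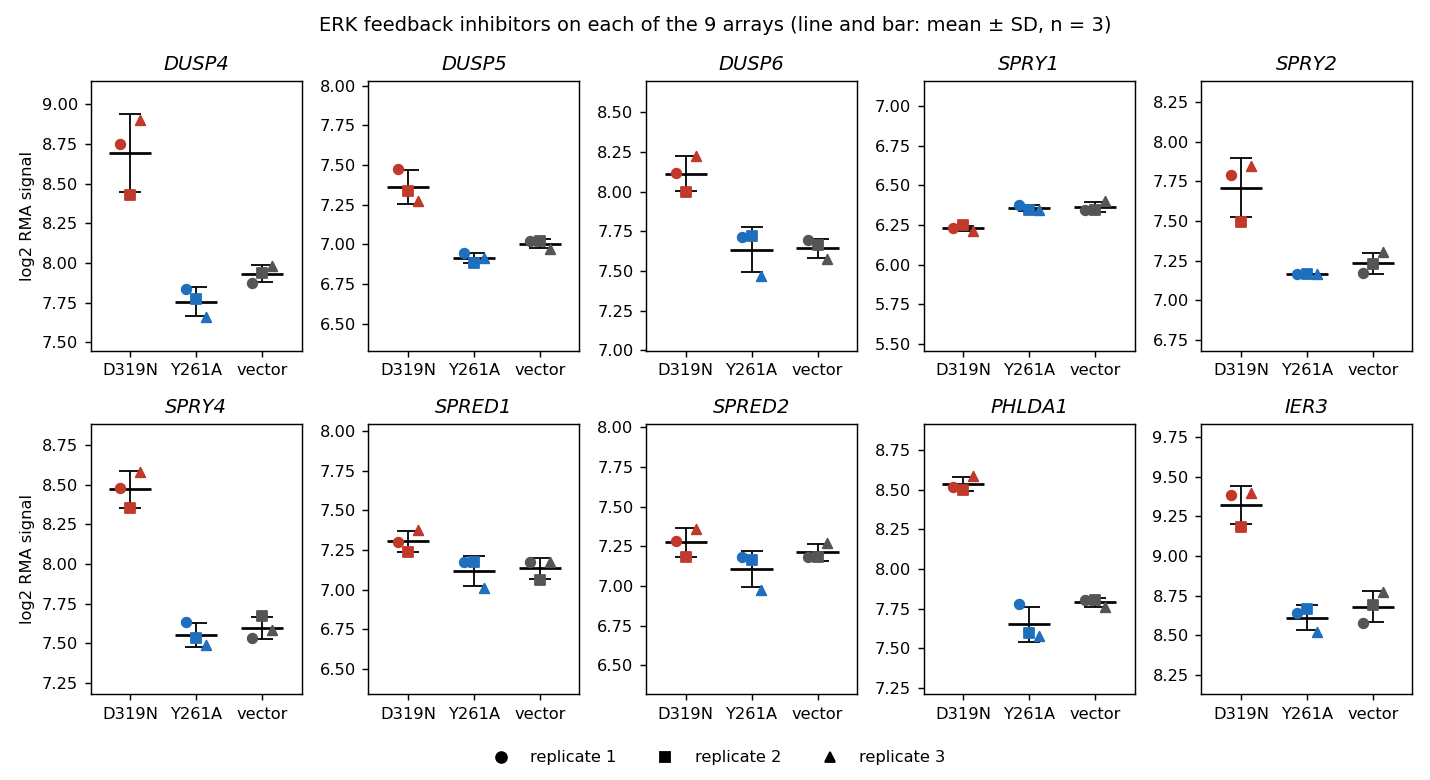
Log2 RMA signal of the 10 feedback genes on each array, with the D319N, Y261A and vector groups from left to right. Symbols are replicates, lines and bars are the mean ± SD of 3 arrays, and every panel spans the same 1.7 log2 units around its own centre. In 8 panels the 3 D319N arrays lie above the 6 other arrays, in the SPRY1 panel they lie below them, and in the SPRED2 panel they overlap. The share of all genes apart from all 6 was not counted. Against the vector arrays alone, 15.1% of all genes lay wholly higher in D319N and 16.9% wholly lower.

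The dual-specificity phosphatases act on ERK itself. DUSP4, a nuclear phosphatase induced by ERK, had log2 signals of 8.75, 8.43 and 8.90 on the D319N arrays, 7.84, 7.77 and 7.66 on the Y261A arrays, and 7.88, 7.94 and 7.98 on the vector arrays. The D319N arrays lay above the other 6, and the Y261A arrays lay just below the vector arrays. The difference between D319N and vector was 0.76 ± 0.11 (SE, adjusted p = 0.00397 in limma), a 1.70-fold rise, and that between D319N and Y261A was 0.94 ± 0.11 (adjusted p = 0.00224 in limma), the widest of the 10 members in that comparison. Between Y261A and vector it was -0.18 (95% interval -0.45 to 0.09, adjusted p = 0.685 in limma), so the small gap between these groups did not pass.

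DUSP6, the cytoplasmic phosphatase that docks on ERK through a D motif, had 8.12, 8.00 and 8.22 on the D319N arrays, 7.72, 7.72 and 7.47 on the Y261A arrays, and 7.69, 7.66 and 7.57 on the vector arrays. The D319N arrays stood above the rest, while the Y261A and vector arrays overlapped. DUSP6 rose 1.39-fold in D319N cells over vector (log2 0.47 ± 0.08 SE, adjusted p = 0.00823 in limma) and differed from Y261A by 0.48 (adjusted p = 0.00954 in limma). Its difference between Y261A and vector was -0.01 (95% interval -0.20 to 0.19).

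DUSP5, a nuclear phosphatase with ERK as its preferred substrate, had 7.48, 7.34 and 7.27 on the D319N arrays, 6.94, 6.88 and 6.92 on the Y261A arrays, and 7.02, 7.02 and 6.97 on the vector arrays. Its rise in D319N cells over vector was the smallest of the 7 (0.36 ± 0.05 SE, 1.28-fold, adjusted p = 0.00298 in limma), and the groups did not overlap. The Y261A arrays again lay below the vector arrays, by 0.09 on average (difference -0.09, 95% interval -0.21 to 0.03, adjusted p = 0.630 in limma).

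The Sprouty genes, whose products hold back RAS and RAF activation below receptors, did not change as a family. SPRY4 had 8.48, 8.35 and 8.58 on the D319N arrays, 7.64, 7.53 and 7.49 on the Y261A arrays, and 7.54, 7.67 and 7.58 on the vector arrays. The lowest D319N array lay 0.68 above the highest of the other 6, and the Y261A and vector arrays overlapped. SPRY4 was 1.83-fold higher in D319N cells than in vector cells (log2 0.88 ± 0.07 SE, adjusted p = 0.000210 in limma), which placed it at rank 221 of 22465 genes by rise, and differed from Y261A by 0.92 (adjusted p = 0.000269 in limma). Against vector, Y261A cells differed by -0.04 (95% interval -0.20 to 0.12).

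SPRY2 had 7.79, 7.50 and 7.85 on the D319N arrays, 7.17 on each of the 3 Y261A arrays, and 7.17, 7.23 and 7.30 on the vector arrays. It rose 1.39-fold in D319N cells over vector (0.48 ± 0.09 SE, adjusted p = 0.00898 in limma), a smaller difference than that of SPRY4, though the 2 genes were not tested against each other. Between D319N and Y261A it differed by 0.54 (adjusted p = 0.00662 in limma), and between Y261A and vector by -0.07 (95% interval -0.27 to 0.14). The D319N arrays spread more widely here (SD 0.19) than the vector arrays (SD 0.07).

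SPRY1 ran the other way, where 37.4% of all genes had a positive difference between D319N and vector. Its signals were 6.23, 6.25 and 6.22 on the D319N arrays, 6.38, 6.35 and 6.35 on the Y261A arrays, and 6.35, 6.35 and 6.40 on the vector arrays, so that the D319N arrays lay below the other 6. The difference between D319N and vector was small, -0.13 ± 0.02 (SE, adjusted p = 0.00641 in limma), and that between D319N and Y261A was -0.13 (adjusted p = 0.0101 in limma). The call against vector was lost with the arrays centred (-0.09, adjusted p = 0.170 in limma), with quantile normalization (-0.09, adjusted p = 0.0816 in limma) and when the residual SD of tied genes was raised to at least the median of genes without ties (adjusted p = 0.436 in limma). The call against Y261A was lost under the same 3 settings (adjusted p = 0.227, 0.122 and 0.414 in limma). An identical value stood on Y261A replicates 2 and 3 and vector replicates 1 and 2. Y261A and vector cells differed in SPRY1 by -0.01 (95% interval -0.06 to 0.05).

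The SPRED genes, whose products bring neurofibromin to RAS at the membrane, did not pass in any of the 3 comparisons. SPRED1 had 7.30, 7.24 and 7.37 on the D319N arrays, 7.17, 7.17 and 7.01 on the Y261A arrays, and 7.17, 7.06 and 7.17 on the vector arrays. The D319N arrays lay above the other 6 by a gap of 0.06, and the difference from vector was 0.17 (95% interval 0.03 to 0.31, adjusted p = 0.105 in limma). Its difference from Y261A was 0.19 (95% interval 0.05 to 0.32, adjusted p = 0.0815 in limma). SPRED1 passed against vector when both D319N replicate 2 and Y261A replicate 3 were left out (0.20, adjusted p = 0.0228 in limma). Over all genes that setting raised the calls from 3717 to 7983. SPRED2 had 7.28, 7.18 and 7.36 on the D319N arrays, 7.18, 7.17 and 6.97 on the Y261A arrays, and 7.18, 7.18 and 7.27 on the vector arrays, with overlap among all groups. Its difference between D319N and vector was 0.06 (95% interval -0.10 to 0.22), and that between D319N and Y261A was 0.17 (95% interval 0.01 to 0.33, adjusted p = 0.134 in limma). Between Y261A and vector SPRED1 differed by -0.02 (95% interval -0.15 to 0.12) and SPRED2 by -0.10 (95% interval -0.26 to 0.06).

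PHLDA1 and IER3 are products of ERK-induced transcription that are neither phosphatases nor RAS regulators. PHLDA1, a pleckstrin homology-like protein known to restrain receptor and AKT signalling, had 8.52, 8.50 and 8.58 on the D319N arrays, 7.78, 7.60 and 7.58 on the Y261A arrays, and 7.81, 7.81 and 7.76 on the vector arrays. The D319N arrays were tight (SD 0.04) and the lowest lay 0.69 above the highest of the other 6, the widest such gap of the 10 members. PHLDA1 rose 1.68-fold in D319N cells over vector (0.74 ± 0.05 SE, adjusted p = 0.000161 in limma) and differed from Y261A by 0.88 (adjusted p = 0.000130 in limma). Its difference between Y261A and vector, -0.14 (95% interval -0.27 to -0.01), was the single one with an unadjusted p under 0.05, and did not pass over all genes (adjusted p = 0.439 in limma).

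IER3, an early response protein that binds ERK and is known to prolong rather than end its phosphorylation, is a member by its induction. It had 9.38, 9.18 and 9.40 on the D319N arrays, 8.64, 8.67 and 8.52 on the Y261A arrays, and 8.58, 8.69 and 8.77 on the vector arrays. It rose 1.56-fold in D319N cells over vector (0.64 ± 0.08 SE, adjusted p = 0.00137 in limma), with no overlap between those groups, and differed from Y261A by 0.71 (adjusted p = 0.00123 in limma). IER3 differed between Y261A and vector by -0.07 (95% interval -0.25 to 0.11), with overlap. The array carries 6 rows for IER3, 5 of them on alternative haplotypes of its chromosome 6 region, and 4 rows hold the same values. The row of the primary assembly gave a lower signal and a difference between D319N and vector of 0.51.

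**Figure D2:**
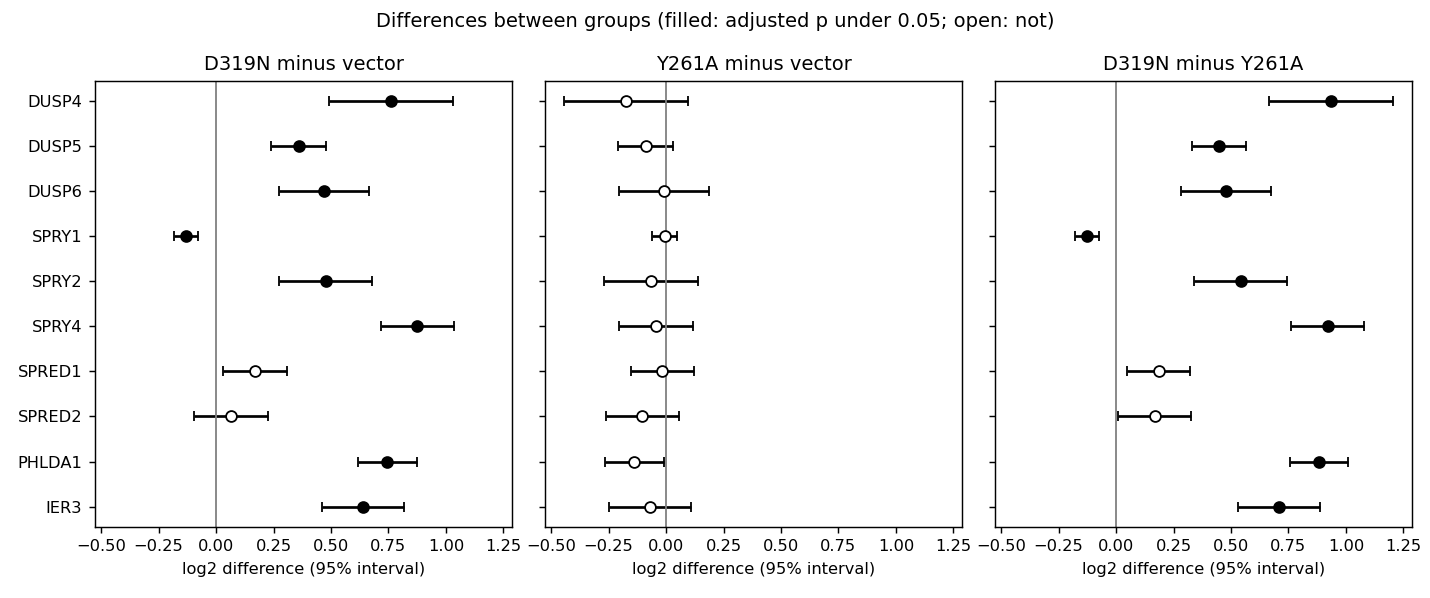
Log2 differences of the 10 genes with 95% intervals from limma, for D319N minus vector, Y261A minus vector and D319N minus Y261A from left to right. Filled points passed at an adjusted p under 0.05 over all genes. The same 7 genes pass to the right of 0 in the left and right panels, and no point is filled in the middle panel, where all 10 differences lie below 0.

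The direct comparison of the mutants tests whether they differ. Between D319N and Y261A, 7 of the 10 members were higher in D319N, 1 was lower and 2 did not pass, where 9.9% of all genes were higher and 4.7% lower, 14.6% in all. All 10 had an unadjusted p under 0.05, against 34.4% of all genes, and 4 were called and at least 1.5-fold higher, against 2.17%. The 7 higher members were those that rose against vector, by 1.36-fold to 1.91-fold. The comparison shares the D319N arrays with the first one and is not a second sample of it. The groups did not overlap for 8 higher members and 1 lower member, while 15.5% of all genes lay wholly higher and 12.6% wholly lower, 28.1% in all. Between D319N and vector the same counts were 8 and 1, against 15.1% and 16.9% of all genes, 32% in all. Between Y261A and vector 3 members, DUSP4, DUSP5 and SPRY2, lay wholly lower and none wholly higher, where 9.22% and 4.12% of all genes did, 13.3% in all.

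Within both mutant groups, 1 array was the lowest for most members. D319N replicate 2 was the lowest D319N array for 8 of the 10 members, and replicate 3 the highest for 8. Over all genes replicate 2 was the lowest in 37.1% and replicate 3 the highest in 31.3%. The median difference of the members from the vector mean was 0.52, 0.35 and 0.60 on D319N replicates 1, 2 and 3. In the Y261A group replicate 3 was the lowest array for 8 members, where it was the lowest for 34.8% of all genes, and all 10 members lay below the vector mean on it. The medians there were -0.02, -0.05 and -0.14 for replicates 1, 2 and 3. The vector arrays showed no such order, with replicates 1, 2 and 3 the lowest for 4, 1 and 3 members and the highest for 1, 1 and 5. D319N replicate 2 and Y261A replicate 3 also deviated together from their groups over all genes (r = 0.60 across genes, which are not independent replicates). Without both arrays, 9 members passed between D319N and vector, 8 higher and 1 lower, and none between Y261A and vector. Calls over all 22465 genes also rose, from 3717 to 7983 between D319N and vector. Between Y261A and vector they rose from 79 to 155.

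**Figure D3:**
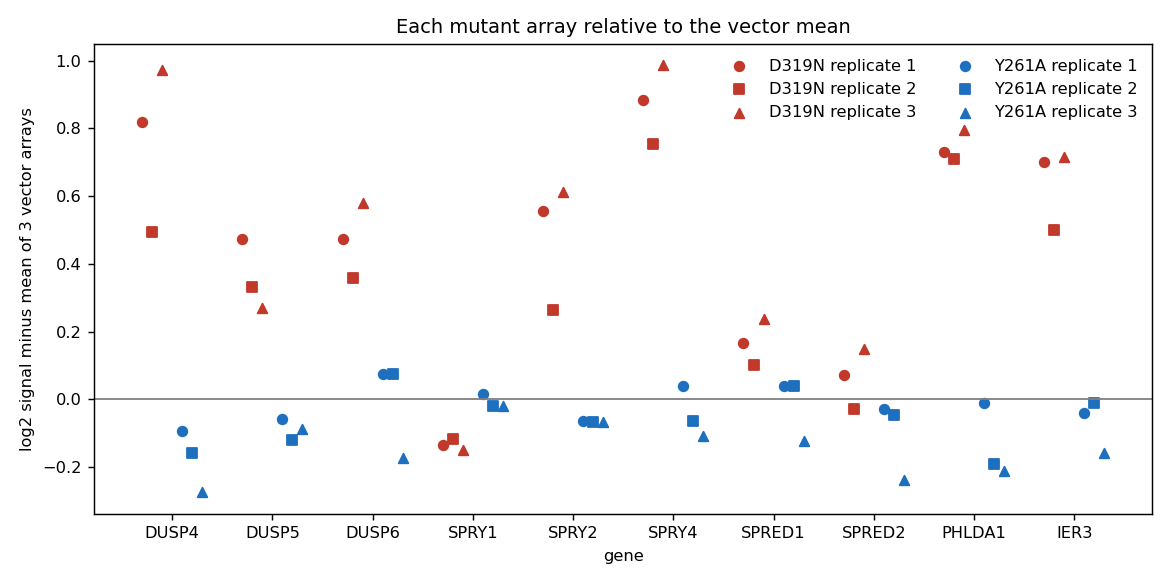
Log2 signal of each mutant array minus the mean of the 3 vector arrays, for each of the 10 genes, with D319N in red left of Y261A in blue. D319N replicate 2 (square) is the lowest D319N array for 8 genes, and Y261A replicate 3 (triangle) is below 0 for all 10.

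Among the 3 members with the widest span of group means, the most alike genes were sought in 209 genes whose group means span at least 1 on the log2 scale. For SPRY4 these were EGR1, an immediate early transcription factor induced by ERK (Pearson r = 0.995 over 9 arrays), MFGE8 (r = 0.995) and TBX3 (r = 0.995). EGR1 averaged 9.96 in D319N, 8.06 in Y261A and 8.18 in vector cells (log2 signal). For PHLDA1 they were the protease gene HTRA1 (r = 0.996), DCBLD2 (r = 0.995) and MFGE8 (r = 0.994). For DUSP4 they were the metalloprotease gene ADAM12 (r = 0.991), SMOC1 (r = 0.987) and the beta-arrestin gene ARRB1 (r = 0.987). The 9 arrays share their normalization, and the D319N arrays lie apart in these genes. The candidates were also chosen by the span of their group means. A high r can therefore come from the difference between D319N and the other groups alone. No correlation within a group is given, and shared regulation was not tested.

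Other genes of the pathway moved in both directions in D319N cells. Of 7 other MAP kinase phosphatases, 3 rose and none fell, where 8.9% of all genes rose and 7.64% fell. DUSP10, which acts mainly on JNK and p38, had 7.97, 7.87 and 7.99 on the D319N arrays, 7.39, 7.38 and 7.26 on the Y261A arrays, and 6.92, 6.89 and 6.92 on the vector arrays. The 3 groups did not overlap. DUSP10 rose by 1.03 ± 0.04 in D319N cells over vector (SE, adjusted p = 1.47e-05 in limma) and also passed in Y261A cells (0.43 ± 0.04, adjusted p = 0.0158 in limma). That Y261A call was lost without vector replicate 1 or 2 or Y261A replicate 1 or 2 (adjusted p = 0.0790, 0.105, 0.0691 and 0.109 in limma), with the arrays centred (0.0552) and with the replicate block (0.114). DUSP1, the broad early response phosphatase, rose by 0.22 (adjusted p = 0.0387 in limma) and DUSP7 by 0.11 (adjusted p = 0.0443 in limma). The call of DUSP1 was lost in 9 of 19 alternatives and that of DUSP7 in 14 of 19, and the count of 3 fell to 1 without D319N replicate 1, without any 1 vector array or without Y261A replicate 2.

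Of 16 other negative regulators of RAS and ERK signalling, 8 rose and 2 fell in D319N cells, against 8.9% and 7.64% of all genes. The ubiquitin ligase gene CBLB rose by 1.32 ± 0.04 (SE, adjusted p = 5.66e-06 in limma), the RAS GTPase-activating gene RASAL2 by 1.04 and PEA15, whose product holds ERK in the cytoplasm, by 0.97. LRIG1, a membrane inhibitor of EGFR, fell by 0.58 in D319N cells (adjusted p = 1.87e-05 in limma) and by 0.21 in Y261A cells (adjusted p = 0.0270 in limma). The Y261A call of LRIG1 was lost without any 1 vector or Y261A array (adjusted p = 0.0562 to 0.139 in limma). It was also lost without both D319N replicate 2 and Y261A replicate 3 (adjusted p = 0.0598 in limma). The same held with the arrays centred, with the replicate block and with the spread of tied genes raised (adjusted p = 0.104, 0.146 and 0.447 in limma). The count of 10 called in D319N cells was 5 without D319N replicate 1 or 3 and 6 without vector replicate 1.

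Of 16 cascade genes, 4 rose and 1 fell in D319N cells, where 8.9% of all genes rose and 7.64% fell. Without both D319N replicate 2 and Y261A replicate 3, 6 rose and 3 fell, and 7983 of 22465 genes were called. The MEK1 gene MAP2K1 rose by 0.44 (adjusted p = 0.00292 in limma), the adaptor gene SHC1 and the RAS exchange factor gene SOS2 by 0.51 each, and the RSK1 gene RPS6KA1 fell by 0.28. None of the 16 passed in Y261A cells in limma, with 4 at an unadjusted p under 0.05. Over all genes 0.352% passed in Y261A cells and 10.3% had an unadjusted p under 0.05. The ERK1 gene MAPK3, named outside the rule after its values were seen, averaged 7.96 in D319N, 7.96 in Y261A and 7.96 in vector cells. An identical value stood on all 3 D319N arrays and on replicates 1 and 3 of Y261A and of vector. Such ties can hide a small difference. Of 18 other ERK output genes, 7 rose and 4 fell in D319N cells. The EGFR ligand gene EREG rose by 2.28, EGR1 by 1.77 and the AP-1 gene JUNB by 1.35, while MYC fell by 0.68 (adjusted p = 0.000243 in limma). The other 3 that fell were ETV4 (-0.40, adjusted p = 0.000940 in limma), ETV1 (-0.38) and ETV5 (-0.32), ETS factors of the PEA3 group that are themselves textbook ERK targets, named outside the rule after their values were seen. ETV4 and ETV5 therefore moved opposite to SPRY4 and DUSP6 on the same arrays. None of the 18 passed in Y261A cells in limma, with 5 at an unadjusted p under 0.05, and 1 was called lower without vector replicate 3.

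Between the mutants, 2 of the 7 other phosphatases were higher in D319N and none lower, DUSP10 by 0.60 and DUSP1 by 0.42 (log2). Over all genes 9.9% were higher and 4.7% lower. Of the 16 other negative regulators 7 were higher and 1 lower, with CBLB at 1.05, RASAL2 at 1.06, PEA15 at 0.89 and LRIG1 at -0.37, and the count of 8 was 5 without D319N replicate 1. Of the 16 cascade genes 4 were higher and 1 lower, or 6 and 3 without both D319N replicate 2 and Y261A replicate 3. The RSK3 gene RPS6KA2 differed by 0.29, MAP2K1 by 0.44, SHC1 by 0.58 and SOS2 by 0.59. Of the 18 other output genes 5 were higher and 2 lower, among them EREG at 2.11, EGR1 at 1.90, JUNB at 1.28 and the cyclin D1 gene CCND1 at 0.51. The counts for this list were 9 and 2 without D319N replicate 2, and 8 and 3 without both that array and Y261A replicate 3. Over all genes 3278 were called between the mutants, 5305 without D319N replicate 2 and 6249 without both arrays.

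**Figure D4:**
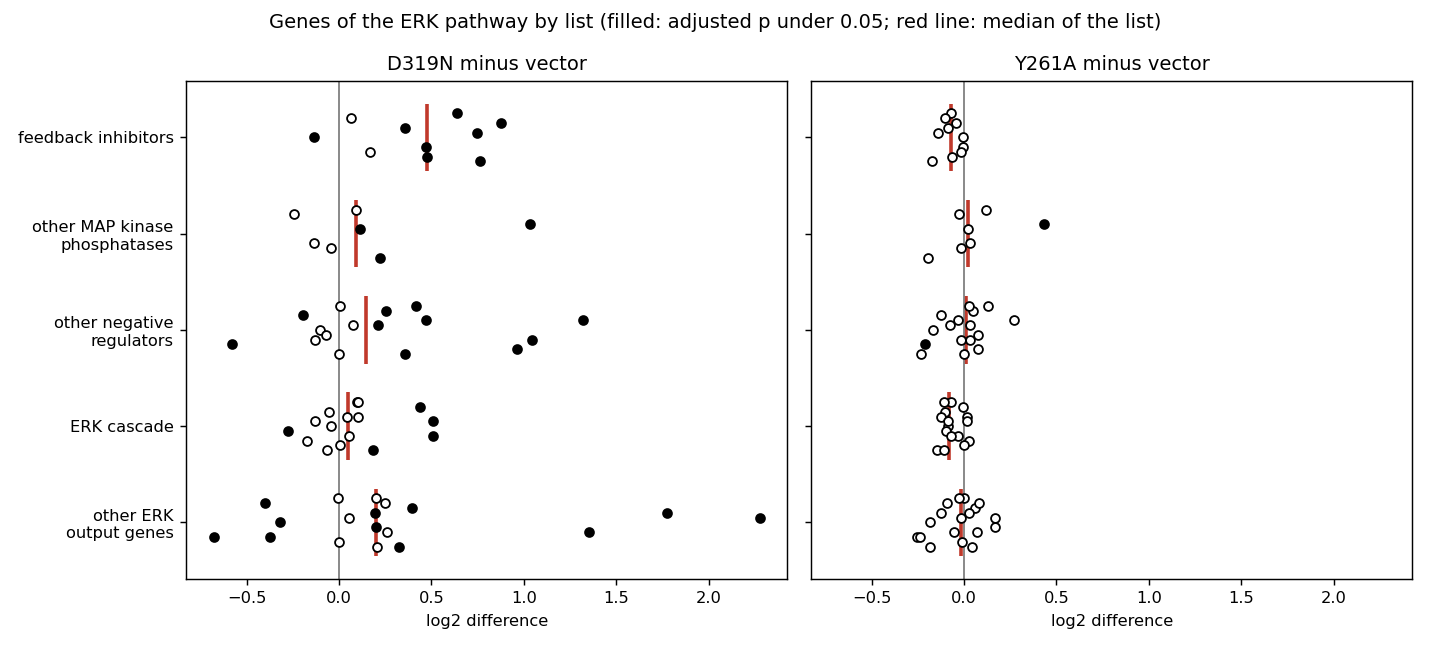
Log2 differences of the feedback genes and of 4 other lists of the ERK pathway, D319N minus vector on the left and Y261A minus vector on the right. Each point is a gene, filled points passed at an adjusted p under 0.05 over all genes, and red lines are list medians. The median of the feedback genes is 0.47 in D319N cells, against 0.09 to 0.20 for the phosphatases, negative regulators and output genes and 0.05 for the cascade, and -0.07 in Y261A cells.

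The lowest correlation between arrays of a group was 0.995 over the genes measured. Ties between 2 or 3 arrays within a group occurred in 63.4% of the 22465 genes and in 5 of the 10 members, and such ties can make the spread look smaller than it is. All 10 members averaged above the mean of the background probe sets (4.85) in every group. So did all but 2 of the 10 markers of other cell types named below. A level above this mean therefore does not show that a gene is expressed. Epithelial markers differed between the groups. Of 6 measured, 5 fell in D319N cells, where 7.64% of all genes fell. EPCAM ran from 6.04 to 6.42 in D319N cells, from 8.22 to 8.23 in Y261A cells and from 8.67 to 9.01 in vector cells. In Y261A cells none of the 6 passed in limma, though all 6 had an unadjusted p under 0.05, against 10.3% of all genes. Of these differences 5 were negative and 1 positive, that of KRT14 (0.34). KRT8 differed from vector by -0.28 in Y261A cells and by -0.27 in D319N cells. None of 10 leukocyte, endothelial, fibroblast and muscle markers passed in limma in any comparison. At an unadjusted p under 0.05, none did for D319N or Y261A against vector, where 28.5% and 10.3% of all genes did. Between the mutants 2 did, against 34.4% of all genes. Over these 10 markers the mean log2 level ran from 5.47 to 5.51 in D319N and from 5.47 to 5.61 in Y261A cells. In vector cells it ran from 5.51 to 5.58. The leukocyte marker PTPRC stood at 2.97 on every array, the lowest of the 10. The leukocyte marker CD14 averaged 6.70 in D319N, 6.69 in Y261A and 6.81 in vector cells, above the member SPRY1 (6.23, 6.36 and 6.36). EPCAM, KRT14, KRT8, PTPRC and CD14 were named outside the rule after their values were seen. The part of the epithelial shift in the changes of the feedback genes was not tested.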

How the data were processed

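The authors deposited 1 table of log2 signals. The submitters' processing notes name RMA and Affymetrix Expression Console 1.4 as the tools. As a method, RMA corrects background, equalises the distribution of probe intensities across arrays and summarises probes by median polish, which can return the same value for several arrays. No further normalization was applied here. Rows with a single gene symbol in the platform annotation were kept (23781 of 68993 rows that are not controls), and the row with the highest mean stood for a gene, which left 22465 genes. The induced transcripts were not analysed here.

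The 3 contrasts were fitted with limma 3.58.1 in R 4.3.3, with a mean per group over all 9 arrays and eBayes moderation. P-values are two-sided, with Benjamini-Hochberg adjustment across the 22465 genes of a contrast. Calls were made where the adjusted p was under 0.05. Errors are SDs over 3 arrays for levels, and moderated standard errors or 95% intervals for differences. The fit was tested on simulated arrays, where it called 42 of 50 genes changed 1.5-fold between D319N and vector and 15 of 50 changed 1.2-fold. Array signals carry no read depth, so precision is limited by the number of arrays. Whether replicates are separate cultures is not in the labels. The p-values then reflect variation among the arrays alone, possibly only technical.

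The members, the other gene lists and the rule for the genes named were chosen with earlier results of these data known. All 10 members are described. From each other list, up to 4 called genes with the smallest p per contrast are named, and a gene of a list named beyond these is said to be outside the rule. For the 3 members with the widest span of group means, the 3 genes with the most alike pattern over the arrays are named. Alternatives left out arrays, fitted only the groups compared, used a replicate block, centred the arrays, applied quantile normalization again, filtered genes, averaged a gene's rows, changed the variance moderation and raised the spread of tied genes.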

Additional observations from a re-analysis of the deposited data

How the results depend on the processing

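The 7 members that rose in D319N cells passed against vector and against Y261A under all 19 alternatives (highest adjusted p 0.0445 and 0.0467 in limma). The number of members called was 7 to 9 against vector and 7 or 8 against Y261A, and 0 between Y261A and vector. Counts over all genes moved more. Between D319N and vector 3717 genes were called, 2524 to 4575 with 1 array left out and 7983 without both D319N replicate 2 and Y261A replicate 3. Between D319N and Y261A the count was 3278, 1938 to 5305 with 1 array left out, 6249 without both arrays and 1935 with only the 2 groups in the fit. Between Y261A and vector it was 79, 9 to 133 with 1 array left out, 155 without both arrays, 46 with the arrays centred, 133 after quantile normalization and 294 with a spread floor for tied genes. The higher and lower calls between D319N and vector were 2000 and 1717, and 1977 and 1136 with the arrays centred. Between Y261A and vector they were 31 and 48, 14 and 32 with the arrays centred, and 77 and 56 after quantile normalization.

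No pairing by replicate number was seen: deviations of same-numbered arrays from their group means correlated between -0.45 and 0.21. The labels do not say whether same-numbered samples were handled together. With the replicate number as a block, 8, 0 and 8 members and 3065, 13 and 2477 genes were called, in the order D319N and vector, Y261A and vector, and D319N and Y261A.

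Small differences between Y261A and vector, none of which passed, turned positive in 12 cases. With 1 array left out, the difference of DUSP6 ran from -0.0497 to 0.0745, that of SPRED1 from -0.0540 to 0.0381 and that of SPRY1 from -0.0183 to 0.0112. Without both arrays DUSP6 was 0.0745 and SPRED1 0.0381. After quantile normalization DUSP6 was 0.0342, SPRED1 0.00745 and IER3 0.0229. The cause was not tested. In simulated arrays, 3 per group, 15 of 50 genes changed 1.2-fold between D319N and vector were called. The simulation held no ties and no change in Y261A, so it does not measure power between Y261A and vector.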
